A study of Mus musculus with 8 samples.

Results

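The respiratory chain genes of both genomes were followed in the livers of db/db mice given a control peptide or AF1 peptide. Members were the rows of the gene table whose symbol began with Nduf followed by a, b, c, s or v and a digit, was Sdha, Sdhb, Sdhc or Sdhd, began with Uqcr, began with Cox and a digit from 4 to 8, or began with Atp5, together with the 13 protein-coding genes of mitochondrial DNA. This gave 108 of the 21532 genes in the table, 95 of them nuclear and 13 of them mitochondrial. The nuclear members were 77 subunit genes, 6 isoforms known from other tissues, 7 pseudogenes and 5 further copies. No measured value entered the rule.

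Liver RNA of 8 male mice was sequenced as stranded mRNA libraries, 1 library per mouse, with 4 mice in each group. All 8 mice carried the db/db genotype, which removes the long form of the leptin receptor and leads to obesity and diabetes, so a lean comparison was not part of these data. From 8 weeks of age they received 5 mg/kg of either peptide 2 times a week for 5 weeks by retro-orbital injection. AF1 peptide is derived from the activation function 1 region of estrogen receptor α, and the peptide was injected into whole animals, so a response of the liver itself and one that follows changes elsewhere in the body cannot be told apart. The question put to these genes was whether their RNA differed between the 2 groups.

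The respiratory chain passes electrons from NADH and succinate to oxygen and stores the energy as a proton gradient across the inner mitochondrial membrane, which ATP synthase uses to make ATP. Complex I (NADH dehydrogenase), complex III (cytochrome bc1), complex IV (cytochrome c oxidase) and complex V (ATP synthase) are built from subunits of both genomes, while complex II (succinate dehydrogenase) is wholly nuclear. The mitochondrial genes are transcribed as long precursors inside the organelle and cut apart, whereas each nuclear gene has its own promoter, and the factors NRF1, the ETS family factor GABP, YY1 and the estrogen-related receptors are known for their sites in many of these promoters. In the table the 13 mitochondrial genes fell to complex I (7), complex III (1), complex IV (3) and complex V (2). The 95 nuclear genes fell to complex I (42), complex II (4), complex III (9), complex IV (21) and complex V (19), with Ndufa4 and Ndufa4l2 counted in complex IV, where Ndufa4 is now placed.

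The promoters of the nuclear members were searched for these sites. Sequences came from RefSeq on the mouse build GRCm38.p6, and only the 250 bases before each annotated start were searched. Of the 77 nuclear subunit genes 65 had a window, with 70 windows in all. The core of the NRF1 site, GCATGCGC or its reverse complement GCGCATGC, stood in 8 of the 70 windows, or 11.4%, against 2.26% of all 32851 windows and 3.31% of the 18835 windows of genes in the table. The ETS motif CCGGAAGT stood in 3 subunit windows, or 4.29%, against 2.88% of all windows and 4.46% of those of genes in the table. The YY1 motif AAGATGGC stood in 1 subunit window, or 1.43%, against 1.56% and 1.76%. The estrogen-related receptor motif TCAAGGTCA also stood in 1, or 1.43%, against 0.387% and 0.313%, a share that rests on that 1 window. Each motif was read on both strands. The base composition differed too, with a median GC content of 57.0% in subunit windows and 52.4% in all windows, and its part in these shares was not tested.

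Ndufb7 is shown because it was the only member to pass the test below, and Ndufa8, Sdhb and Atp5k because they carry the NRF1 core in complexes I, II and V. Each window is written 5′ to 3′ toward the annotated start with every motif match in capitals. The Ndufb7 window lies at chr8:83566508-83566757 on the plus strand, that of Ndufa8 at chr2:36049339-36049588 on the minus strand, that of Sdhb at chr4:140961021-140961270 on the plus strand and that of Atp5k at chr5:108434400-108434649 on the minus strand. In Atp5k the 2 forms of the core overlap, which makes a run of 10 capitals.
Ndufb7: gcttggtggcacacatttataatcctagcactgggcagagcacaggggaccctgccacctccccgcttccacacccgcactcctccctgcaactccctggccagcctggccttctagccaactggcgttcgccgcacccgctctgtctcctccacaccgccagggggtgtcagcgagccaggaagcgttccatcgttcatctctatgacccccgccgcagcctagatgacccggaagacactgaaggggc
Ndufa8: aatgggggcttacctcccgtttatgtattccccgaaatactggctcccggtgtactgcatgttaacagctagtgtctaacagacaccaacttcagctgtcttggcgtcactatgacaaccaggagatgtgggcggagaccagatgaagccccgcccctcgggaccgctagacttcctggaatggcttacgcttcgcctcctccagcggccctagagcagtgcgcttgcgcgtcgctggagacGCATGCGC
Sdhb: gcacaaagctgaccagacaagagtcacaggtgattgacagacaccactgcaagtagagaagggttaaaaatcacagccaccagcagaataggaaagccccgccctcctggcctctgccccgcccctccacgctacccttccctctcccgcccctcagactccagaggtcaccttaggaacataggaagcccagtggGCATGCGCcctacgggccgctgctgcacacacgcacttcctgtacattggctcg
Atp5k: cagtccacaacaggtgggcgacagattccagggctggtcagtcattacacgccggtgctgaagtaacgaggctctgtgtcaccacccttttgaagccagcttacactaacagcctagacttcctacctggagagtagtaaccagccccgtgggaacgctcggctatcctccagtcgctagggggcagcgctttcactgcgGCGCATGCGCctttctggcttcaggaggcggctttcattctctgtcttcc
The core began 8 bases before the annotated start in Ndufa8, 54 bases in Sdhb and 50 bases in Atp5k. The Ndufb7 window held none of the 4 motifs, which says only that these letters are not in it. The other genes with the core were Atp5g2, Atp5l, Cox6a1, Ndufa11 and Ndufa6. None of the 8 passed the test between groups, and their log2 fold changes were between -0.073 in Atp5g2 and 0.16 in Sdhb.

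The libraries held 23031880 to 45117528 reads in genes, and the lowest count of any nuclear subunit gene in any mouse was 639 reads. The tissue label fitted its markers, since all 10 hepatocyte markers were tested and summed to 1940228 to 2734026 normalized counts in each mouse, while the 1 muscle marker listed in the table reached at most 2.95. A pair of mice stood apart. AF1 peptide replicate 1 had the lowest hepatocyte marker sum, and a macrophage marker sum of 2018 against 4106 to 4948 in the other mice. Of 5 listed fat genes only 1 was in the table, with 38.3 normalized counts in this mouse against 1437 to 3436 in the others. The level of 1 gene cannot show whether fat tissue was present. The hepatocyte markers of this mouse did not all move alike. Its Alb count was the lowest, 1224160 against 1511745 to 1997674, while its Cps1 count was the highest, 34576 against 5979 to 13727. Control replicate 4 had a red blood cell marker sum of 123402 against 27114 to 51930 in the other mice. Over all the marker lists, 1 of 7 macrophage and 1 of 6 stellate cell genes were called lower in AF1 peptide mice, against 3.03% of all genes. None was called higher, against 3.16% of all genes. No gene of the other lists was called, among them 10 hepatocyte, 5 endothelial, 5 cholangiocyte and 5 red blood cell genes tested. In bulk tissue fewer cells of a type and less RNA per cell cannot be told apart, and the part of these differences in the values below was not tested. Results that rest on AF1 peptide replicate 1 are given with and without it.

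A normalized count here is the number of reads divided by the size factor of the library, as deposited. Differences between groups were tested with limma on log2(normalized count + 1) over 15989 genes with a mean of at least 10, and a gene was called at an unadjusted p under 0.05, the threshold in the methods of the study. The volcano plot of the study also colours genes by a change of more than 1.3-fold, which was asked for here only as an alternative. Fold changes are log2 of AF1 peptide over control with their standard error (SE), so a positive value means a higher level in AF1 peptide mice. Across all genes 3.16% were called higher and 3.03% lower, the median log2 fold change was -0.0083, and 48.2% of genes had a value above 0. After Benjamini-Hochberg adjustment limma called 0 genes, or 0%, with 990 genes at an unadjusted p under 0.05, and edgeR called 0 and DESeq2 called 3. The smallest adjusted p of any gene was 0.763, and those of the 103 members tested lay between 0.763 and 0.998, so they are printed only beside called genes.

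Of the 108 members 103 were tested, 90 nuclear and all 13 mitochondrial. The 5 others, Cox6a2, Cox7a1, Cox8b, Ndufa11b and Uqcrh-ps1, had means under 10. Only 1 of the 103 was called, the complex I gene Ndufb7, which was higher, and none was called lower. This is 1 of 90 nuclear members against the 3.16% of all genes called higher. The plot of fold changes by complex shows how close most members lay to 0.

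**Figure D1:**
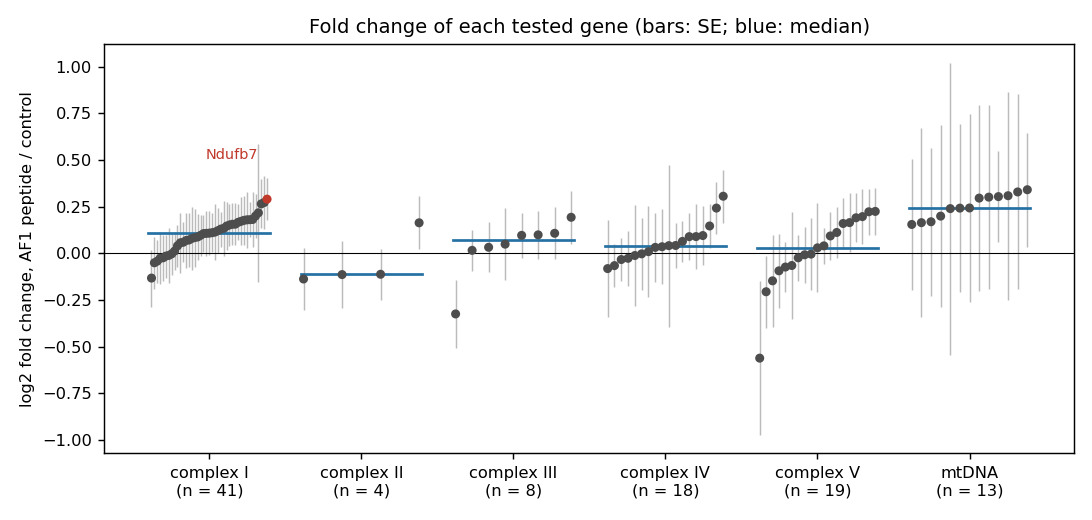
The vertical axis gives the log2 fold change of AF1 peptide over control for each tested gene, sorted within the nuclear members of each complex and the mitochondrial-DNA (mtDNA) genes, with bars of 1 SE and a blue line at the group's median. Ndufb7, in red, was the only gene with p under 0.05, and the 13 mtDNA genes lay between 0.15 and 0.34.

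The mitochondrial genes were among the most abundant RNAs of the liver. The highest mouse had a median of 2.53 times the count of the lowest over these 13 genes, against 1.51 times over the 77 nuclear subunit genes. Together they took 29.15%, 26.81%, 34.32% and 22.38% of the reads in the 4 control mice and 20.81%, 37.78%, 34.28% and 36.1% in the 4 AF1 peptide mice. Their summed normalized counts were 10839464, 9341665, 13079389 and 6872095 in control mice and 6814501, 15893038, 12420603 and 14124234 in AF1 peptide mice. The means were 10033154 ± 2607690 and 12313094 ± 3930322 (SD, n = 4 each), and the groups overlapped. AF1 peptide replicate 1 lay at the level of control replicate 4, the lowest of the controls, while the other AF1 peptide mice had a mean of 14145958 ± 1736319 (SD, n = 3). The summed counts of the 2 genomes by mouse are plotted next.

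**Figure D2:**
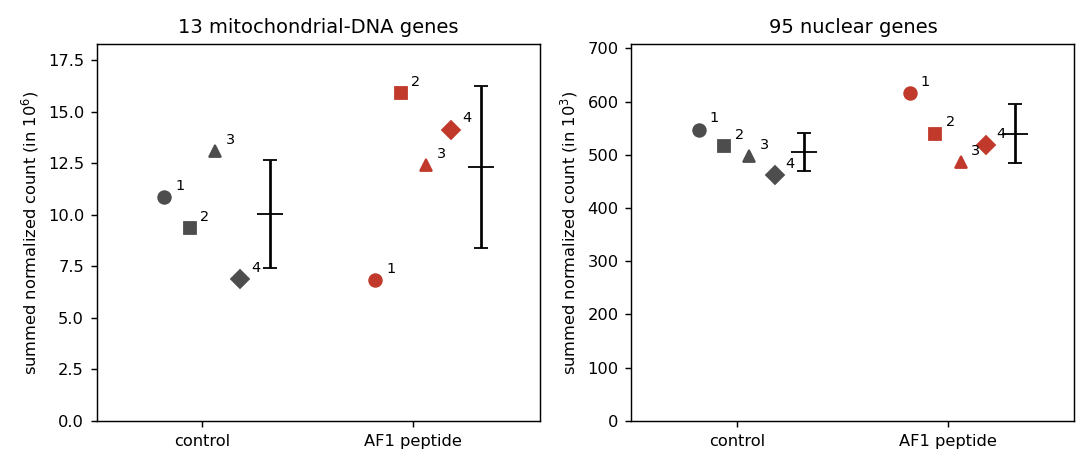
Summed normalized counts of the 13 mitochondrial-DNA genes (left) and of the 95 nuclear genes (right) in each mouse, numbered by replicate, with the group mean and SD beside the points. The mitochondrial sum of AF1 peptide replicate 1 was the lowest of the 8 mice and its nuclear sum the highest.

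The nuclear members varied less. Their summed normalized counts were 547439, 516535, 497671 and 462342 in control mice and 615918, 539899, 485831 and 517891 in AF1 peptide mice. The means were 505997 ± 35607 and 539885 ± 55337 (SD, n = 4 each), and the second became 514541 ± 27189 without AF1 peptide replicate 1. The highest mouse had 1.33 times the nuclear sum of the lowest, against 2.33 times for the mitochondrial sum. The mitochondrial sum was 14.86 to 26.28 times the nuclear sum in control mice. In AF1 peptide mice that ratio was 11.06 in replicate 1 and 25.57 to 29.44 in the others.

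All 13 mitochondrial genes had a positive log2 fold change, with a median of 0.24, but 0 of 13 passed the test. Their adjusted p-values ran from 0.813 to 0.964. The genes are neighbours on 1 molecule and share precursors, so their 13 directions are not separate observations. The SE from the fit with an abundance trend was 0.24 to 0.78 and reached its highest value in COX1, the most abundant gene. With each gene's own variance the SE was 0.24 to 0.46, and again none passed. When every library was scaled to the same total the 13 values stayed above 0, between 0.064 in ATP8 and 0.25 in ND6.

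The complex I genes ND1 to ND6 and ND4L encode the proton-pumping membrane core of the enzyme. ND6, the only one of the 13 read from the opposite strand, had 173694, 158544, 211799 and 108522 normalized counts in the 4 control mice and 140332, 274597, 212708 and 198726 in the 4 AF1 peptide mice. The groups overlapped, with control replicate 4 lowest and AF1 peptide replicate 2 highest, and the mean went from 163140 ± 42752 to 206591 ± 55119 with a log2 fold change of 0.34 (SE 0.31). ND3 had the smallest p of the 13 and went from 72721 ± 15434 to 90587 ± 21916 with a log2 fold change of 0.30 (SE 0.24). The other complex I genes had values of 0.16 in ND1, 0.17 in ND4L, 0.20 in ND2, 0.24 in ND5 and 0.30 in ND4.

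COX1, the catalytic subunit of complex IV that holds the oxygen-binding site, had 3038503, 2611882, 3715074 and 1840920 normalized counts in the 4 control mice and 1705656, 4657777, 3298686 and 4027206 in the 4 AF1 peptide mice. The lowest of the 8 mice was AF1 peptide replicate 1 and the highest AF1 peptide replicate 2, so the AF1 peptide group spanned the control group on both sides. Its log2 fold change was 0.24 (SE 0.78). COX2, which takes electrons from cytochrome c, had a value of 0.33 (SE 0.52), and COX3 0.24 (SE 0.50).

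CYTB, the cytochrome b of complex III, had 1442310, 967262, 1568157 and 816804 normalized counts in the 4 control mice and 887094, 1760580, 1679796 and 1603965 in the 4 AF1 peptide mice. AF1 peptide replicates 2 to 4 lay above all 4 control mice, and replicate 1 lay below 3 of them. The log2 fold change was 0.31 (SE 0.56). Of the membrane subunits of ATP synthase, ATP6 had a log2 fold change of 0.30 (SE 0.50) and ATP8 of 0.15 (SE 0.35). ATP8 had the highest ratio of the highest to the lowest mouse, 3.47, with 22311, 20748, 29801 and 15466 normalized counts in the 4 control mice and 11347, 39335, 22918 and 32048 in the 4 AF1 peptide mice.

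AF1 peptide replicate 2 had the highest value of the 8 mice in 13 of 13 mitochondrial genes. The lowest was control replicate 4 in 7 genes and AF1 peptide replicate 1 in 6. Without AF1 peptide replicate 1 the 13 log2 fold changes were between 0.47 in ATP6 and COX3 and 0.59 in ND2, with a median of 0.54. In that fit 2 of 13 genes were called higher, ATP8 (0.51) and ND3 (0.49), against 4.58% of all genes called higher. Adjusted p-values of the members stayed at 0.47 or above in that fit. Without control replicate 4 the median of the 13 was 0.093 instead of 0.24.

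**Figure D3:**
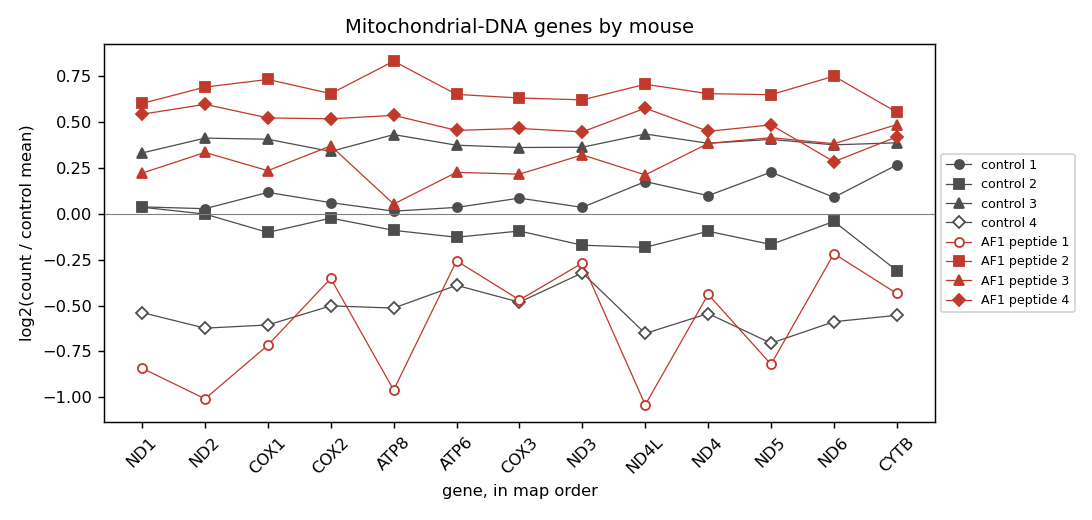
Each line is 1 mouse and gives log2 of its normalized count over the control mean for the 13 mitochondrial-DNA genes, in the order of the genes on the molecule. AF1 peptide replicates 2 to 4 lie above the control mean in all 13 genes, and AF1 peptide replicate 1 and control replicate 4 (open symbols) lie below it in all 13.

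The mix of the mitochondrial genes differed most in AF1 peptide replicate 1. COX1 made up 25.03% of the mitochondrial counts there against 26.56% to 29.31% in the other mice. ND2 made up 4.032% against 5.203% to 5.924%, and ATP6 12.22% against 9.368% to 11.05%. ND6 made up 2.059% against 1.407% to 1.728%. Of the 13 shares this mouse had the highest in 6 and the lowest in 6, with CYTB as the exception. Group means of the shares lay close together, with COX1 at 27.8% ± 0.699 in control and 27.35% ± 1.93 in AF1 peptide mice (SD, n = 4 each).

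Mitochondrial ribosomal RNA, read from the same strand as 12 of the 13 genes, had positive values too. The 12S RNA mt-Rnr1 went from 53621 ± 14167 to 77545 ± 22345 normalized counts, a log2 fold change of 0.51 (SE 0.28). Without AF1 peptide replicate 1 its value was 0.75 (adjusted p = 0.452). The 16S RNA mt-Rnr2 had a value of 0.25 (SE 0.26). These RNAs carry only short tails, and libraries selected for mRNA recover them in part.

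Counts of several mitochondrial genes depend on how shared reads were assigned. In the GENCODE M21 annotation ATP8 and ATP6 share 43 bases, ND4L and ND4 share 7, and ND5 and ND6 share 14 on opposite strands. Reads can also match nuclear copies of mitochondrial DNA, for every 50-base word of COX2 and 97.99% to 99.86% of those of COX3, ATP6, ND4L and ND3 recur in other annotated transcripts. By this measure the values of these genes are less certain than those of ND1 and CYTB, which each share under 5% of their words. ND6 and ATP8 share under 5% too, but each overlaps a neighbouring gene. The use of strand in counting is not given, so their values also remain uncertain.

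Per kilobase of transcript the mean level of the mitochondrial genes ran from 118856 normalized counts in ATP8 to 2014216 in COX1, with a median of 706278. Among the 77 nuclear subunit genes it ran from 1190 in Ndufb2 to 51246 in Uqcrq, with a median of 7647. The length used was the median over the annotated protein-coding transcripts of a gene, 2413 bases in Ndufb2 and 651 in Ndufs1. Where these transcripts differ in length, the level per kilobase and the order of the genes are uncertain. With these lengths the lowest mitochondrial level was 2.32 times the highest nuclear one. Uqcrq, a small subunit of complex III, was followed by Cox5b at 27147, Ndufa6 at 23676, Cox6b1 at 23509 and Cox4i1 at 23407 per kilobase.

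The nuclear members had a median log2 fold change of 0.082, and 63 of 90, or 70%, were above 0 where 48.2% of all genes were. Equal library totals moved all genes alike, to medians of -0.0088 over nuclear members and -0.099 over all genes, and left the nuclear median above that of all genes by 0.090, against 0.091 with the deposited scaling. By complex the median was 0.11 in complex I with 33 of 41 genes above 0, -0.11 in complex II with 1 of 4, 0.073 in complex III with 7 of 8, 0.039 in complex IV with 12 of 18 and 0.030 in complex V with 10 of 19.

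Single mice weighed on these medians, the same ones whose marker sums stood apart, and the part of the marker differences was not tested. AF1 peptide replicate 1 had the highest value of the 8 mice in 47 of 90 nuclear members, or 52.2%, against 25.9% of all genes. Control replicate 4 had the lowest in 45 of 90, or 50%, against 11.7% of all genes, and the highest in 0. Relative to the control mean, the median nuclear member was 0.21 higher on the log2 scale in AF1 peptide replicate 1 and differed by -0.15 in control replicate 4. Nuclear members made up 2.374% of the reads outside mitochondrial DNA in AF1 peptide replicate 1 and 1.939% to 2.078% in the other mice. Without AF1 peptide replicate 1 the median over nuclear members was 0.041. By complex it then was 0.063 in complex I, -0.20 in complex II, -0.0087 in complex III, 0.053 in complex IV and -0.072 in complex V. The plot of medians by mouse and complex shows that the lift of that mouse was 0.43 in complex V and 0.13 in complex IV.

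**Figure D4:**
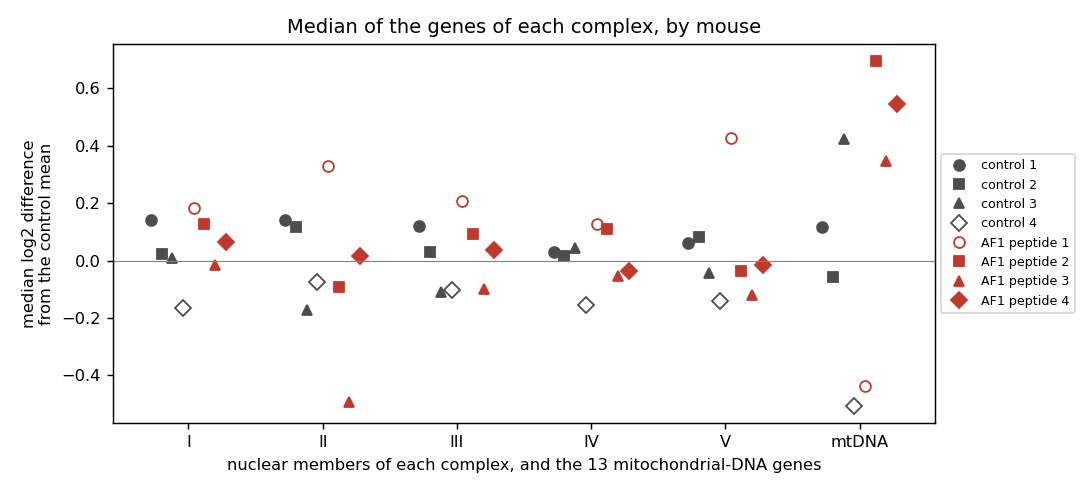
For each mouse, the median over the genes of a complex of the log2 difference from the control mean, for the nuclear members of complexes I to V and for the mitochondrial-DNA (mtDNA) genes. AF1 peptide replicate 1 is the highest mouse in complexes I to V and near the bottom in mtDNA, and control replicate 4 is the lowest in complexes I, IV, V and mtDNA.

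In complex I, which oxidises NADH, 1 of 41 tested nuclear genes was called higher and 0 lower. The called gene, Ndufb7, encodes an accessory subunit on the intermembrane-space side of the membrane arm, and its upstream window is printed above. It had 6592, 5780, 6437 and 5031 normalized counts in the 4 control mice and 7676, 7295, 7150 and 6897 in the 4 AF1 peptide mice. The groups did not overlap, with all 4 AF1 peptide mice above all 4 control mice. Such a separation in this direction held for 2.05% of all genes, and 1.85% had separate groups in the other direction. The mean rose from 5960 ± 712 to 7254 ± 326 (SD, n = 4 each), or 1.22-fold. The log2 fold change was 0.29 (SE 0.11, adjusted p = 0.763). It was 0.26 without AF1 peptide replicate 1. With equal totals it was 0.20 and missed the threshold, as it did without control replicate 2 (0.28) or without control replicate 4 (0.21).

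Several nuclear core subunits of complex I, among them carriers of the flavin and of iron-sulfur clusters, had small positive values that did not pass the test. These were 0.060 in Ndufs1, 0.080 in Ndufv1, 0.11 in Ndufs3, 0.11 in Ndufv2, 0.15 in Ndufs8 and 0.17 in Ndufs7. Among the accessory subunits, Ndufa13 had the highest mean count and went from 10425 ± 1181 to 11559 ± 245 with a log2 fold change of 0.16 (SE 0.11). Ndufa5 had 5915, 4711, 6255 and 4250 normalized counts in the 4 control mice and 5510, 7078, 6383 and 6335 in the 4 AF1 peptide mice, so that AF1 peptide replicates 2 to 4 lay above every control mouse and replicate 1 did not. Its value was 0.27 (SE 0.14), and that of Ndufa3 was 0.27 (SE 0.13). Ndufc2 had the lowest value in the complex, -0.13 (SE 0.15).

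Complex II oxidises succinate and also serves the citric acid cycle, and none of its 4 genes was called. Sdha, the flavoprotein that binds succinate, had 5642, 6577, 4986 and 5866 normalized counts in the 4 control mice and 7009, 5043, 3899 and 5382 in the 4 AF1 peptide mice, with a log2 fold change of -0.14 (SE 0.17). Sdhb, the iron-sulfur subunit, had 10114, 8484, 8074 and 7315 normalized counts in the 4 control mice and 11087, 9909, 7698 and 9436 in the 4 AF1 peptide mice, with a value of 0.16 (SE 0.14). The membrane anchors Sdhc and Sdhd had values of -0.11 (SE 0.14) and -0.11 (SE 0.18). In Sdha, Sdhc and Sdhd the lowest mouse was AF1 peptide replicate 3, and without it the values of Sdha and Sdhd were 0.0029 and 0.041.

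Complex III passes electrons from ubiquinol to cytochrome c. Of 8 tested nuclear genes none was called. Uqcrc2, a core protein of the matrix arm, had the smallest p and the lowest value, with 2618, 2984, 1758 and 2324 normalized counts in the 4 control mice and 2340, 1967, 1440 and 1957 in the 4 AF1 peptide mice. Its groups overlapped, and its log2 fold change was -0.32 (SE 0.18). Without AF1 peptide replicate 1 it was -0.43 (adjusted p = 0.485). Its partner Uqcrc1 had a value of 0.11 (SE 0.14), and Uqcrfs1, the iron-sulfur protein, of 0.033 (SE 0.13). Uqcrq had the highest count and the largest value, 0.19 (SE 0.14).

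Complex IV reduces oxygen to water, and 0 of its 18 tested nuclear genes was called. Cox4i1, a regulatory subunit with the highest count in the complex though not per kilobase, had 18741, 18264, 16560 and 15211 normalized counts in the 4 control mice and 19628, 17105, 16597 and 17399 in the 4 AF1 peptide mice. The groups overlapped throughout, and the log2 fold change was 0.042 (SE 0.12), or -0.049 with equal totals. Cox5a had the lowest value, -0.081 (SE 0.26), and the widest spread of any nuclear subunit gene, with 4246, 4336, 2856 and 3963 normalized counts in the 4 control mice and 6481, 2743, 2731 and 3424 in the 4 AF1 peptide mice. AF1 peptide replicate 1 was 1.68 times the control mean in this gene. Without that mouse the value of Cox5a was -0.37. Cox5b-ps, a processed copy of Cox5b, had the largest value, 0.31 (SE 0.14). It shares 61.88% of its 50-base words with Cox5b, whose own value was 0.24 (SE 0.14), and reads of the pair may be split between them.

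Complex V makes ATP, and 0 of its 19 tested nuclear genes was called. The lift of AF1 peptide replicate 1 was strongest here. Atp5b, the catalytic beta subunit, had 15577, 17709, 12617 and 16945 normalized counts in the 4 control mice and 27335, 12604, 12853 and 14460 in the 4 AF1 peptide mice, and that mouse was 1.74 times the control mean while the other 3 were at or below 14460. Its log2 fold change was 0.030 (SE 0.24) in all mice and -0.23 without it. Atp5e, the epsilon subunit of the central stalk, had the largest value, 0.22 (SE 0.12), and Atp5h, a subunit of the peripheral stalk, the smallest p, with a value of 0.22 (SE 0.12). Atp5pb, which encodes subunit b of that stalk, had the lowest value among genes with a mean of at least 100, -0.21 (SE 0.19). The 3 genes that encode the same ring subunit c had values of 0.16 (SE 0.16) in Atp5g1, -0.073 (SE 0.13) in Atp5g2 and -0.15 (SE 0.25) in Atp5g3.

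Leaving out AF1 peptide replicate 1 changed which nuclear members passed. In the fit without it 3 were called higher, Ndufa3 (0.31), Ndufa5 (0.34) and Ndufb7, against 4.58% of all genes. A further 7 were called lower against 5.48% of all genes. These were Atp5a1 (-0.29), Atp5g3 (-0.41), Atp5l (-0.22), Atp5pb (-0.37), Cox5a (-0.37), Ndufc2 (-0.27) and Uqcrc2 (-0.43) on the log2 scale. In 6 of these 7 the mouse left out was the highest of all 8, and Uqcrc2 was the exception. Among the 77 subunit genes AF1 peptide replicates 2 to 4 lay above the control mean together in 22 and below it together in 22.

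**Figure D5:**
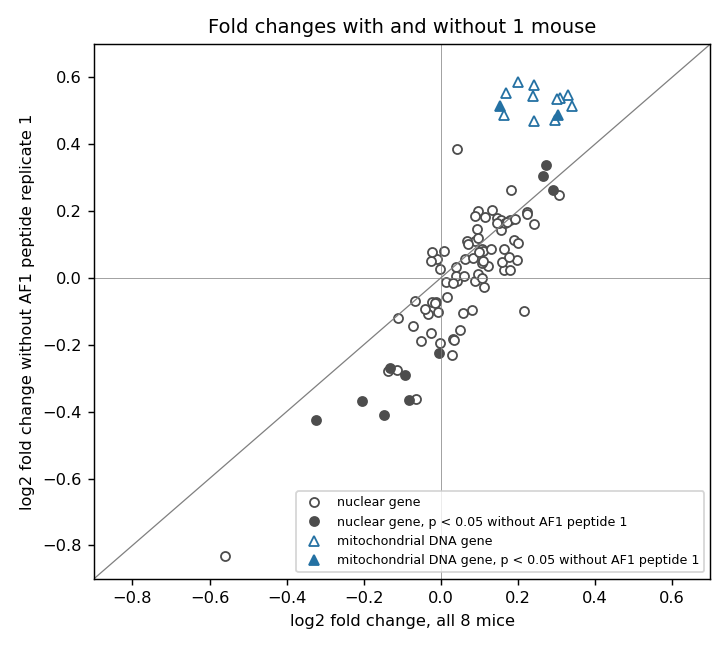
Each point is 1 tested gene, with its log2 fold change in all 8 mice on the horizontal axis and without AF1 peptide replicate 1 on the vertical axis, and the diagonal marks equal values. Mitochondrial-DNA genes (triangles) lie above the diagonal, and filled symbols have p under 0.05 without that mouse, 3 nuclear genes and 2 mitochondrial-DNA genes above 0 and 7 nuclear genes below 0.

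The forms known from liver were the abundant ones of each isoform set. Mean normalized counts were 17438 for Cox4i1 and 15.8 for the lung isoform Cox4i2, 12871 for Cox6a1 and 2.16 for the muscle isoform Cox6a2, 11425 for Cox6b1 and 17.5 for the testis isoform Cox6b2, and 7886 for Cox8a and 1.72 for the muscle isoform Cox8b. Cox7a1, the muscle form, stood at 4.34 against 2512 for Cox7a2. Ndufa4l2, a hypoxia-responsive relative of Ndufa4, stood at 119 against 8616. Of the major forms not yet given, Cox6a1 had a log2 fold change of -0.066 (SE 0.11), Cox6b1 0.090 (SE 0.12), Cox7a2 0.032 (SE 0.19), Cox8a -0.033 (SE 0.11) and Ndufa4 0.036 (SE 0.20). Cox7a2l, which takes part in joining complexes III and IV, had a value of -0.0025 (SE 0.19). Among the minor forms tested, Cox4i2 had a value of -0.012 (SE 0.27), Cox6b2 0.041 (SE 0.43) and Ndufa4l2 -0.026 (SE 0.15). None of these genes passed the test, and with 4 mice per group the SE of nuclear subunit genes, 0.093 to 0.26, sets the size of difference that could be seen.

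The 7 pseudogenes and 5 further copies ranged widely in level. Ndufs5-ps had 2290 to 3834 normalized counts over the mice, near those of Ndufs5 itself, and Atp5l-ps2 10.7 to 56.2. Ndufb4c shares 100% of its 50-base words with Ndufb4, and Ndufa12-ps shares 78.75% with Ndufa12, so their counts are uncertain. Atp5l-ps2 had the lowest value of all members, -0.56 (SE 0.41). None of the tested copies and pseudogenes was called.

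Genes that build, feed or regulate the chain were read from lists of 12 functions, and 5 entries were called higher and 0 lower in all 8 mice, against 3.16% and 3.03% of all genes. Without AF1 peptide replicate 1 the lists had 5 entries called higher and 9 called lower, against 4.58% and 5.48% of all genes, and the 9 entries were 8 genes because Tfam stood in 2 lists.

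Of 53 tested assembly factors 1 was called, Cox10 of complex IV, which makes the heme A precursor, and this share lies below the 3.16% of all genes. It had 315.6, 300.4, 338.3 and 348.4 normalized counts in control mice and 492.7, 474.9, 378.1 and 372.8 in AF1 peptide mice. The groups did not overlap, as in 2.05% of all genes in this direction. The log2 fold change of Cox10 was 0.39 (SE 0.12, adjusted p = 0.763), and 0.32 without AF1 peptide replicate 1. Atpaf1, an assembly factor of complex V, had groups that did not overlap in the other direction, as in 1.85% of all genes. Its mean was 314.6 ± 17.6 in control and 266.3 ± 28.4 in AF1 peptide mice, with a value of -0.24 (SE 0.11) that missed the threshold, and it was called lower without AF1 peptide replicate 1 (-0.30).

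Of 12 regulators of mitochondrial gene expression 1 was called higher, against 3.16% of all genes. Esrra, the estrogen-related receptor α, a nuclear receptor that acts on many genes of oxidative metabolism, had 1574, 1746, 1743 and 1629 normalized counts in control mice and 2083, 1967, 2031 and 1794 in AF1 peptide mice. The groups did not overlap, as in 2.05% of all genes, and the log2 fold change was 0.23 (SE 0.088, adjusted p = 0.763). It was 0.21 without AF1 peptide replicate 1. Yy1 had groups that did not overlap in the other direction, with means of 870.8 ± 54.6 in control and 763.6 ± 76.4 in AF1 peptide mice and a value of -0.19 (SE 0.10) that missed the threshold. Ppargc1a, the gene of a coactivator of Esrra, had 323.8 and 204.6 normalized counts in AF1 peptide replicates 1 and 2 against 94.7 to 129.8 in the other mice. Its value was 0.46 (SE 0.32) in all mice and 0.15 without AF1 peptide replicate 1. Tfam, which packages mitochondrial DNA and takes part in its transcription, had a value of -0.20 (SE 0.11) in all mice. It was called lower without AF1 peptide replicate 1 (-0.25). Nrf1 had a value of -0.033 (SE 0.12).

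Among 19 tested genes of mitochondrial RNA processing 2 were called higher, against 3.16% of all genes. These were the related Fastk (0.22, SE 0.10) and Tbrg4 (0.23, SE 0.10), and neither passed without AF1 peptide replicate 1. A further list held 83 genes with symbols of mitochondrial ribosomal proteins, pseudogenes included. Of these 1 was called, Mrpl38, which was higher (0.36, SE 0.14), again beside 3.16% of all genes. Without AF1 peptide replicate 1 that list had 2 of 83 genes called higher and 4 called lower, against 4.58% and 5.48% of all genes. The pseudogene Mrps36-ps2 was among those called higher. In all mice none was called among the 16 tested genes of mitochondrial-DNA maintenance and transcription, the 15 electron carriers and their makers, the 6 uncoupling and nucleotide exchange proteins, or Cyc1 and Ndufab1, subunits whose symbols lie outside the rule. In the fit without that mouse 1 of the 16 maintenance genes was called higher, Mterf1b (0.39), and 1 lower, Tfam. Of the 15 carriers 2 were called lower in that fit, Etfdh (-0.53) and Coq8b (-0.31). The shares of all genes were again 4.58% higher and 5.48% lower. In all mice Etfdh was at -0.36 (SE 0.20) and Coq8b at -0.057 (SE 0.22). Etfdh hands electrons from fatty acid oxidation to ubiquinone, and Coq8b serves the making of ubiquinone. Cyc1, the cytochrome c1 of complex III, had a value of 0.077 (SE 0.14), and cytochrome c itself, Cycs, of -0.15 (SE 0.13).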

How the data were processed

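Liver mRNA of 8 db/db mice was measured, 4 per group as the labels give them. Per the labels and the methods of the study, reads were trimmed with Trim Galore 0.6.7, aligned with HISAT2 to mm39, sorted with SAMtools 1.17 and counted with GenomicAlignments. The annotation, the use of strand and the normalizing tool are not given in the sources used here. The deposited values are a signal per gene, namely read counts divided by size factors by the authors. Whole reads were recovered for 100% of 172256 values (tolerance 0.05 reads), and the factors of 0.5475 to 1.214 equal those of the median-of-ratios method. No column was left unused.

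Tests used limma 3.58.1 (R 4.3.3) with an abundance trend on log2(value + 1) for genes with a mean of at least 10. edgeR 4.0.16 and DESeq2 1.42.0 on recovered reads, other scalings, filters, pseudocounts and left-out mice were alternatives, and the scripts were tested on simulated data. p-values cover the spread between mice. The members and lists were chosen with earlier results of these data known. Named genes were all 13 mitochondrial genes, called nuclear members, per complex the highest mean, smallest p and extreme fold changes at a mean of at least 100, all of complex II and the isoform sets. Others named were chosen after their values were seen. The labels give the groups the same replicate numbers, but these are different mice. Transcript lengths and shared 50-base words came from GENCODE M21 (GRCm38), with 106 of 108 members matched.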

Additional observations from a re-analysis of the deposited data

Results flagged for a closer look

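In 100 groups of 4 mice a single mouse was checked for standing apart, by the ratio of its gap from the nearest mouse to the range of the group, against Dixon's critical value at 95%. The check marked 6, where chance alone marks about 5. AF1 peptide replicate 1 was the mouse in 3 of them, as the highest in Atp5b (ratio 0.874), in Cox7a2 (ratio 0.877) and in the percentage of reads outside mitochondrial DNA taken by nuclear members (ratio 0.907). Control replicate 3 was the lowest control in Sdhd (ratio 0.888). AF1 peptide replicate 2 was the highest of its group in Cox6b1 (ratio 0.869). Control replicate 4 was the lowest control in the median of the nuclear complex IV genes (ratio 0.857).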

How the results depend on the processing

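All 140 alternative values of the medians by genome and complex moved by less than 1 SD between mice. This bound was wide, since for the mitochondrial genes the SD was 0.45 and the median 0.24. Leaving out 1 mouse could hardly pass it, so the bound does not show that the medians are stable. The mitochondrial median ranged from 0.093 to 0.54 when 1 mouse was left out. Some medians near 0 changed sign, and with equal totals this followed from the shift of all genes. The 1 nuclear gene called higher became 0 with equal totals or when more than 1.3-fold change was also asked, 2 with equal totals outside mitochondrial DNA, with edgeR or with each gene's own variance, and 0 to 5 when 1 mouse was left out. The 0 nuclear genes called lower became 0 to 7, and the 0 mitochondrial genes called higher 0 to 2, when 1 mouse was left out, with both highest counts without AF1 peptide replicate 1 and the 5 without control replicate 3. Equal totals moved the median of all genes to -0.099 and the share of calls that were higher from 51.1% to 14.4%, since mitochondrial RNA enters the totals. The deviations of mice with the same replicate number had correlations of 0.235, 0.0238, 0.216 and -0.064. Their mean was 0.103, against -0.0342 between mice with different numbers. So few values cannot show whether the numbers mark a shared batch. With the replicate block 3 nuclear genes were called higher (Cox5b-ps, Ndufa3 and Ndufb7) and 1 lower (Uqcrc2, -0.32). That fit called 1244 of all genes, against 990 in the main fit.

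Of 41 named genes tested 17 changed sign in at least 1 of 20 alternatives, in 42 values, of which 0 had p under 0.05. With equal totals, which lower all genes alike, values near 0 fell below it in Cox4i1 (-0.049), Atp5b (-0.062), Cox6b1 (-0.0017), Cox6b2 (-0.049), Cox7a2 (-0.059) and Ndufa4 (-0.056), and Cox7a2l became 0.025 with edgeR and 0.029 with DESeq2. With 1 mouse left out the log2 fold change ranged from -0.084 to 0.51 in ATP8, from -0.0040 to 0.49 in ND1, from -0.030 to 0.55 in ND4L, from -0.28 to 0.0029 in Sdha, from -0.27 to 0.041 in Sdhd, from -0.015 to 0.085 in Cox4i1, from -0.12 to 0.087 in Cox4i2, from -0.37 to 0.050 in Cox5a, from -0.0013 to 0.15 in Cox6b1, from -0.25 to 0.39 in Cox6b2, from -0.18 to 0.14 in Cox7a2, from -0.19 to 0.12 in Cox7a2l, from -0.11 to 0.015 in Cox8a, from -0.18 to 0.14 in Ndufa4, from -0.092 to 0.050 in Ndufa4l2, from -0.23 to 0.14 in Atp5b and from -0.15 to 0.00089 in Atp5g2. Counts differed between mice of 1 group by 14.6 to 312 times the sampling noise of the reads (chi-square per degree of freedom), so the number of mice and not the depth limits these comparisons.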
